A study of Mus musculus with 2 samples.

Results

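Msx1 and Msx2 are a pair of homeobox genes, and this report describes their transcripts in single cranial neural crest cells (CNCCs) of the mouse head at embryonic day E11.5. The members are the 2 genes of these names among the 32285 genes of the count tables, and both were detected. Control embryos were Tfap2a wt/flox and Tfap2b wt/flox, and mutant embryos carried 2 floxed copies of each gene. Embryos of both genotypes carried the r26 mTmG reporter and the Wnt1:CRE transgene, so the controls also carried 1 floxed copy of each gene in cells with CRE. Heads were cut below the second pharyngeal arch, and GFP-positive cells were sorted. Cells of 2 embryos were pooled into 1 library per genotype, so no difference below has a replicate check, and brackets give 95% intervals that cover counting error only. Wnt1 is also active in the dorsal neural tube and midbrain, and the sort therefore held brain cells beside neural crest cells.

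Msx proteins are homeodomain transcription factors that act largely as repressors and partner other homeodomain proteins. Both genes are well-known targets of bone morphogenetic protein (BMP) signalling. In the face they mark mesenchyme at the distal tips of the growing prominences, where outgrowth, palate and tooth development depend on them, and they are also expressed in the roof of the neural tube. TFAP2A and TFAP2B, the factors removed in this design, are transcription factors of the neural crest and of facial mesenchyme.

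Msx1 (ENSMUSG00000048450) lies on the minus strand of chromosome 5 (GRCm38, 37820485 to 37824583), and Msx2 (ENSMUSG00000021469) on the minus strand of chromosome 13 (53466884 to 53473074). Each has 2 exons at most in the GENCODE annotation, and neither overlaps another annotated gene. Letters that TFAP2 proteins are known to bind were searched on both strands of the 300 bases around each RefSeq start site (250 before, 50 after), because TFAP2 was the factor deleted. GCC and GGC with 4 free bases between them were found at 2 places before Msx1 and at none in the Msx2 window. GCCNNNGGC, with 3 free bases, was found in neither window. Among 32817 such windows of the genome, 14.8% held the first and 16.6% the second. The letters CCAAT, a common promoter element, were present before the RefSeq starts of both genes and in 37.4% of all windows. The Msx2 match lies inside the gene as GENCODE annotates it. TAATTG, a sequence bound by Msx-type homeodomains, was in neither window and in 8% of all windows. GC made up 70.0% of the Msx1 window and 61.0% of the Msx2 window, against a median of 52.7%. The matched sites are shown with the matched letters in capitals, read along the gene's strand from the RefSeq windows of GRCm38.p6.
Msx1, TFAP2 letters, chr5:37824697-37824722 (minus strand), starting at -129: ccccgagcGCCCCCAGGCcgagcgcg
Msx1, TFAP2 letters, chr5:37824680-37824705 (minus strand), starting at -112: ccgagcgcGCCTCGGGGCacgagcac
Msx1, CCAAT, chr5:37824664-37824684 (minus strand), starting at -91: agcacagcCCAATggttctct
Msx2, CCAAT, chr13:53472892-53472912 (minus strand), starting at -124: agggagagCCAATcggtggcg
Such a match is a description of letters and not of binding, which was not measured here. The RefSeq start of Msx2 lies inside the GENCODE gene, and so does its whole window (chr13:53472731-53473030). In that annotation the Msx2 window therefore does not lie before the gene, and its letters and GC share do not describe a promoter. A further CCAAT on the other strand before Msx1 is not shown.

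The libraries held 83542433 control and 79206144 mutant UMIs, tags that each mark 1 captured transcript. After filtering, 5625 control and 5587 mutant cells remained, with medians of 13478 and 12234 UMIs. Only 6 barcode sequences occurred in both libraries. Nearly all control cells (98.8%) held Xist, and 82.0% of mutant cells held Y-linked transcripts, which means that an effect of genotype cannot be told apart from one of sex. Tfap2a and Tfap2b stayed detectable in mutant mesenchyme, with log2 ratios of mutant over control of -0.53 (-0.67 to -0.39) and -0.26 (-0.34 to -0.18), and counts at transcript ends do not separate intact from recombined alleles. Clustering without the members and other genes of interest gave 4 classes named from markers, namely glia-like (261 control, 202 mutant cells), mesenchyme-like (3805, 2872), brain progenitor-like (765, 1235) and neuron-like (794, 1278). Mesenchyme fell into 7 clusters. Among these were a mandibular-like cluster 2 (771, 405), a maxillary-like cluster 3 (646, 468) and a frontonasal-like cluster 0 (1256, 790). Cluster 1 (683, 706), led by genes that include Emx2, Hoxa2 and Dlx3, and cluster 4 (350, 360), with Vtn, Tagln and Zic1 at its head, were left unnamed, as were cluster 5, mostly doublets, and cluster 6, of low depth.

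Where in the head the 2 genes were expressed was examined first. Both were chiefly transcripts of the mesenchyme. Of all 26038 control Msx1 UMIs, 24789 came from mesenchyme-like cells, as did 14094 of 15795 mutant UMIs. For Msx2 these were 3401 of 3632 and 1744 of 2165 UMIs. Levels are given as CPM, in which the UMIs of a gene are scaled to a common total over all UMIs of the same cells, and since 1 tag is counted per transcript end, CPM can be set side by side between genes without dividing by length. Msx1 was the more abundant gene, with 7.29 (7.03 to 7.56) UMIs for each Msx2 UMI in control mesenchyme and 8.08 (7.69 to 8.50) in mutant mesenchyme.

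Within the mesenchyme, Msx1 followed an order from frontonasal to Hoxa2-containing cells. In the control library it stood at 705.8 CPM in frontonasal-like, 345.6 in mandibular-like, 298.4 in maxillary-like, 241.4 in cluster 4 and 149.6 in cluster 1 cells. No neighbours in this order had overlapping intervals. In the mutant library the order was the same, with 562.7, 373.1, 243.3, 165.7 and 98.4 CPM. Msx2 also peaked in frontonasal-like cells, at 105.5 CPM in the control library, followed by mandibular-like cells at 56.1 CPM. Maxillary-like cells and cluster 4 did not differ beyond their intervals, at 32.7 and 33 CPM. Cluster 1 was nearly without Msx2, at 3.79 CPM (2.66 to 5.25). In the mutant library Msx2 stood at 72.1 CPM in frontonasal-like cells, 54.4 in cluster 4, 43.3 in mandibular-like, 19.1 in maxillary-like and 7.21 in cluster 1 cells. The intervals of cluster 4 (47.3 to 62.4) and mandibular-like cells (38.4 to 48.6) overlapped in the mutant library, so their order there was not set.

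In the brain cells both genes were concentrated in a few small clusters. Splitting the neural cells at a higher resolution gave a small cluster of 27 control and 53 mutant cells led by genes that include Ttr and Foxj1, a choroid plexus transcript and a regulator of motile cilia. Its Msx1 level was above that of every other cluster, 974.5 CPM (865.9 to 1093) in the control and 777.5 (714.2 to 844.9) in the mutant library. Its Msx2 level was 100.1 (67.6 to 142.9) and 123.1 (98.7 to 151.6) CPM. At the main resolution these cells lay in neural cluster 0, led by genes that include Wfdc1 and Rspo1, whose other cells held 26 and 13.5 CPM of Msx1. Neural cluster 6 (129 control, 172 mutant cells) was also rich in both genes. It was led by genes that include Msx3, Olig3 and Wnt3, all known from the dorsal neural tube. There Msx1 stood at 235.4 and 278.7 CPM and Msx2 at 66.2 CPM in both libraries. Msx3, the third family member, stood at 299.6 and 357.9 CPM in this cluster. It had 37 UMIs in each library over the whole mesenchyme, and 0 in the Ttr-led cluster. Neural cluster 9 (60 control, 70 mutant cells) held 224 and 190 Msx1 UMIs and 31 and 41 Msx2 UMIs. With its control cells thinned to 5000 UMIs, 25% held Msx1 alone and 5% both genes. Isthmic progenitor-like cells held 22.9 and 16.6 CPM of Msx1, rhombic-lip or dorsal neuron-like cells 22.4 and 29.2, and the glia-like neural cluster 12.6 and 4.67. Neural cluster 5, led by genes that include Sncg and Otp, had 1 and 2 UMIs of Msx2 and 26 and 15 of Msx1.

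**Figure D1:**
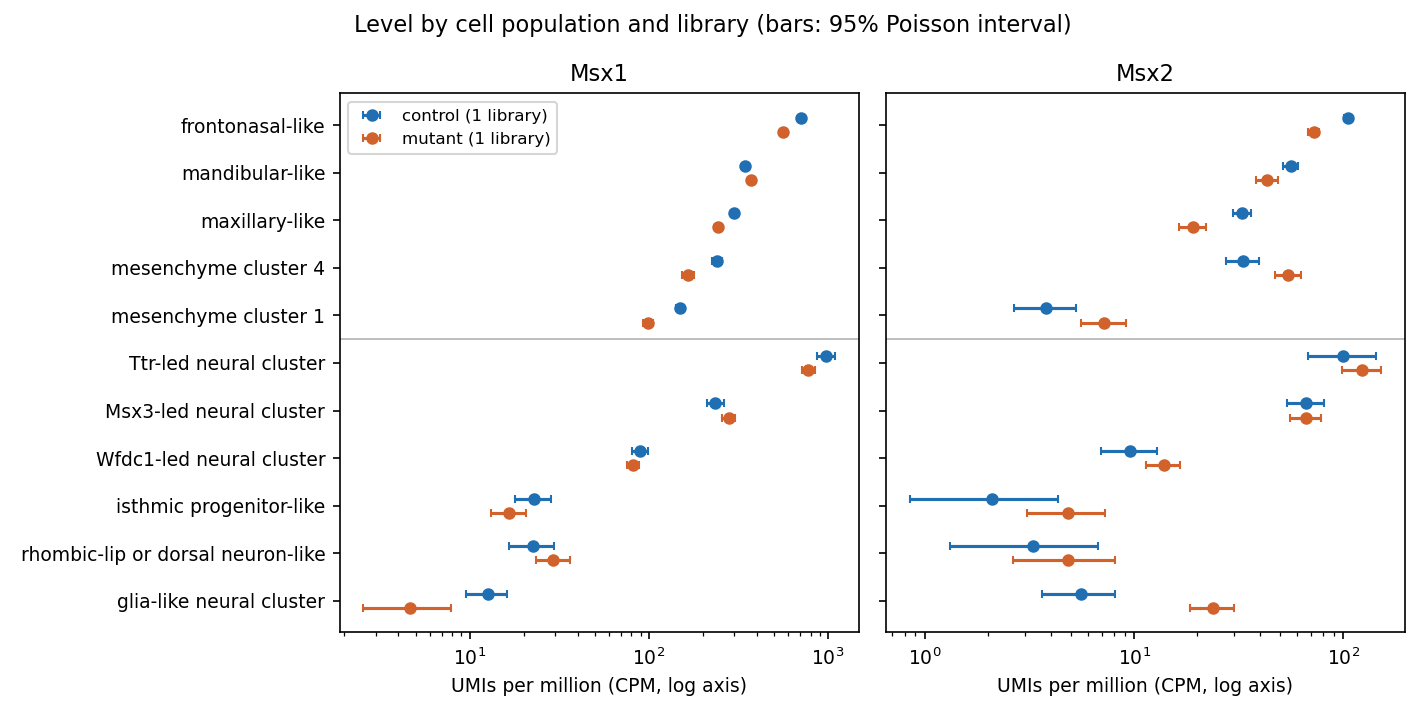
Msx1 (left) and Msx2 (right) in CPM (log axis) for 11 cell populations, in the control (blue) and mutant (orange) library. Bars are 95% Poisson intervals. Frontonasal-like and Ttr-led neural cells carried the most of both genes, at 705.8 and 974.5 CPM of Msx1 in the control library, and the Ttr-led cells are also part of the Wfdc1-led cluster.

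To ask how the members differed between genotypes, mutant was set against control within each population. Over all mesenchyme-like cells both genes were lower in the mutant library. Msx1 stood at 422.1 CPM in the control and 317.7 in the mutant library. The log2 ratio was -0.41 (-0.44 to -0.38). Msx2 stood at 57.9 and 39.3 CPM, a log2 ratio of -0.56 (-0.64 to -0.48). Neither reached the 1.5-fold used here as a call, which 0.899% of 11685 genes with at least 100 UMIs passed in the lower and 2.51% in the higher direction. Their ratios still lay near the low end, since 204 genes had a lower ratio than Msx1 and 120 a lower one than Msx2, while the median of all genes was 0.02.

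Both genes were lower in frontonasal-like cells, the region with the highest mesenchymal levels. Msx1 was at 705.8 and 562.7 CPM there, a log2 ratio of -0.33 (-0.37 to -0.29), and Msx2 at 105.5 and 72.1 CPM, a ratio of -0.55 (-0.66 to -0.44). The limits of the cluster mattered for the size of both ratios. When the libraries were clustered without integration, Msx1 had -0.72 and Msx2 -0.29, and when all genes could enter clustering Msx1 had -0.54 and Msx2 -0.23. In maxillary-like cells, Msx1 was at 298.4 and 243.3 CPM, a ratio of -0.29 (-0.37 to -0.22), which moved to -0.09 without integration. Msx2 was at 32.7 and 19.1 CPM in these cells, a ratio of -0.78 (-1.04 to -0.52). That was past 1.5-fold, as were 0.571% of genes in the lower and 0.688% in the higher direction, and only 20 of 8577 genes had a lower ratio.

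The members parted in the mandibular-like cells. Msx1 was at 345.6 and 373.1 CPM there, a log2 ratio of 0.11 (0.04 to 0.18). That small difference was -0.0074 in the cells with at most 5% mitochondrial UMIs. Msx2 was lower in the same cells, at 56.1 and 43.3 CPM, with a ratio of -0.37 (-0.58 to -0.17). The number of Msx1 UMIs per Msx2 UMI accordingly went from 6.17 (5.66 to 6.72) to 8.63 (7.63 to 9.78). In this cluster 1.07% of genes were called lower and 0.547% higher.

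In mesenchyme clusters 1 and 4 Msx1 was lower and Msx2 higher in the mutant library. In cluster 1, with Hoxa2 among its leading genes, Msx1 was at 149.6 and 98.4 CPM, a log2 ratio of -0.60 (-0.72 to -0.48) and past 1.5-fold, as were 0.839% of genes in that direction. Weighting each cell equally gave -0.98, and the ratio was -0.21 in cells with at most 5% mitochondrial UMIs. Msx2 had only 36 control and 68 mutant UMIs there, a ratio of 0.93 (0.32 to 1.55), and 10 cells held 47.2% and 61.8% of them. The Msx2 ratio was 0.40 (-0.39 to 1.19) under the mitochondrial limit and 0.71 (-0.18 to 1.64) in thinned cells, and both of these intervals include 0. In cluster 4, Msx1 was at 241.4 and 165.7 CPM with a ratio of -0.54 (-0.69 to -0.39), whereas Msx2 was at 33 and 54.4 CPM with a ratio of 0.72 (0.39 to 1.05). Msx2 was called higher there, as were 2.58% of genes, while 0.833% were called lower. The Msx2 UMIs of cluster 4 were held by few cells, since 10 cells carried 72.0% of them in the control and 57.8% in the mutant library.

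Brain cells showed no common direction. Msx1 did not differ beyond counting error in brain progenitor-like cells, at 90.5 and 91.0 CPM (log2 ratio 0.01, -0.11 to 0.13). In the Msx3-led cluster Msx1 had a ratio of 0.24 (0.05 to 0.44), Msx2 of 0.00 (-0.38 to 0.39) and Msx3 of 0.26 (0.09 to 0.43). The Ttr-led cluster had -0.33 (-0.53 to -0.12) for Msx1 and 0.30 (-0.31 to 0.95) for Msx2. In neuron-like cells Msx1 was at 26 and 16.4 CPM, a ratio of -0.66 (-0.93 to -0.40) past 1.5-fold, as were 0.675% of genes. Mesenchyme markers moved with it, since the 6 markers (Prrx1, Prrx2, Twist1, Fli1, Pdgfra, Twist2), all detected in these cells, summed to 76.7 CPM in control and 42.5 CPM in mutant neuron-like cells. Their part in the Msx1 value was not tested.

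Among the 11 populations plotted, the ratio farthest from 0 was that of Msx2 in the glia. In the glia-like neural cluster, whose leading genes include Sox10 and Erbb3, known from Schwann cell precursors, Msx2 had 26 control and 71 mutant UMIs, or 5.55 (3.62 to 8.13) and 23.7 (18.5 to 29.9) CPM. The log2 ratio was 2.10 (1.43 to 2.80), and it was between 1.41 and 2.37 in the alternatives. Msx1 was lower in these cells, with 59 and 14 UMIs and a ratio of -1.43 (-2.38 to -0.57) that ranged from -2.46 to -0.51 in the alternatives. In thinned cells its interval (-2.23 to 1.05) included 0. Of the control Msx1 UMIs 81.4% lay in 10 cells. The share of glia with an Msx2 UMI, in cells thinned to 5000 UMIs each, was 2.44% (0.900 to 5.23) in the control and 9.42% (5.68 to 14.5) in the mutant library, and 8.06% and 20.8% without thinning, at median depths of 17797 and 14993 UMIs. For Msx1 the thinned shares were 3.66% and 2.62%, with intervals that overlapped those of neural cluster 5, at 3.61% and 1.52%, and are read as background. For Msx2 the thinned shares of neural cluster 5 were 0.602% of control and 0% of mutant cells. The control share of Msx2-positive glia thus also lay near background, and the Msx2 ratio starts from that low level. A group of 79 control and 10 mutant cells, led by genes that include Tlx2 and Isl1, separated from this cluster at the higher resolution. Without it Msx2 was still at 7.6 and 25.1 CPM, a ratio of 1.72 (1.04 to 2.46). Over the whole glia-like class the 5 neuron markers summed to 2050 CPM in the control and 286.0 CPM in the mutant library, and the 6 glia markers to 616.6 and 985.0 CPM. The mesenchyme markers summed to 117.2 and 120.7 CPM and the brain progenitor markers to 291.3 and 269.0 CPM, with no marker of these lists at 0. The part of this difference in cell make-up in the Msx values was not tested.

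**Figure D2:**
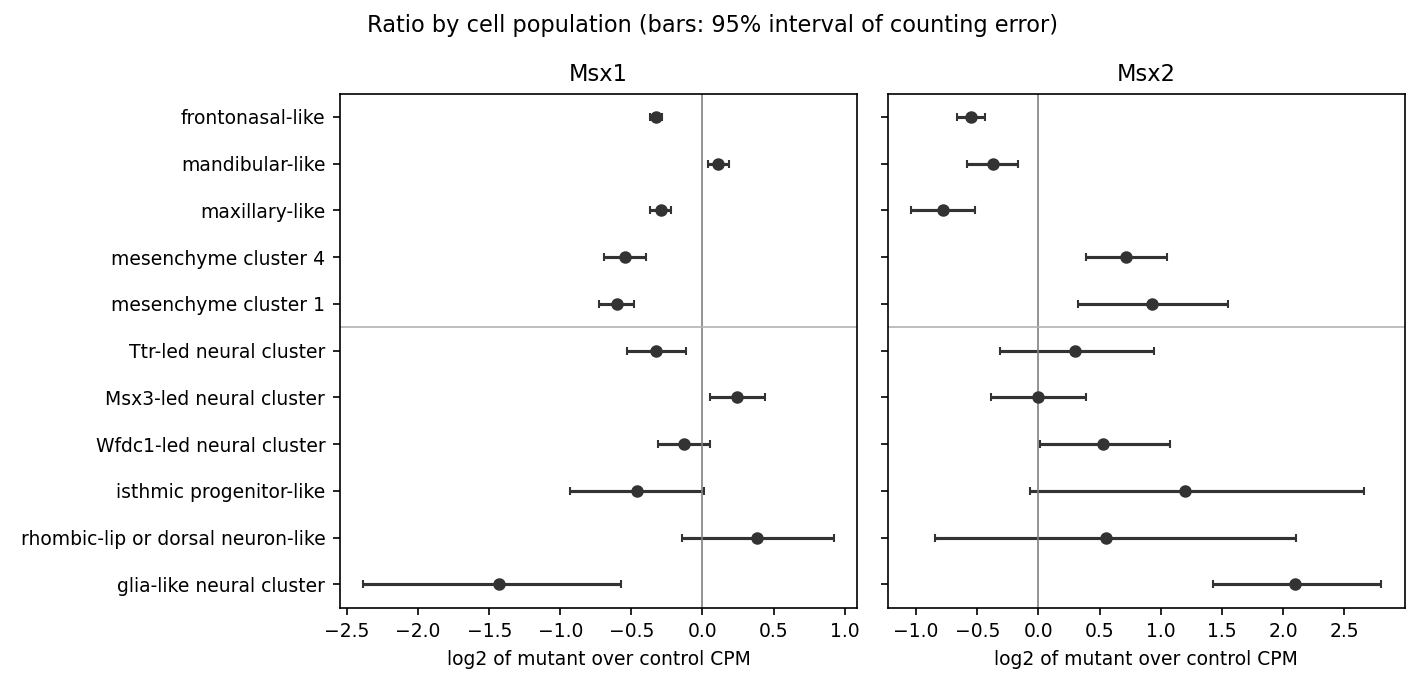
log2 ratio of mutant over control CPM for Msx1 (left) and Msx2 (right) in the same 11 populations, 1 library per genotype, with 95% intervals of counting error. Points left of the line at 0 are lower in the mutant library. Msx1 lay to the left in 4 of the 5 mesenchyme clusters, and Msx2 lay to the right in mesenchyme clusters 1 and 4 and, at 2.10, in the glia-like cluster.

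The next question was whether the lower level meant fewer positive cells or fewer transcripts in each. Cells were thinned to 5000 UMIs so that depth did not enter. In the mesenchyme, a Msx1 UMI was found in 44.2% of control cells (42.6 to 45.8) and 32.8% of mutant ones (31.1 to 34.6), and in 54.2% and 40.2% without thinning. In the positive cells the mean was 4.50 Msx1 UMIs in the control and 4.48 in the mutant library. In frontonasal-like cells 65.2% (62.5 to 67.8) and 50% (46.4 to 53.6) were positive, with 5.47 and 5.83 UMIs per positive cell. The top of the distribution differed little, since 11.1% of control and 9.74% of mutant frontonasal-like cells held 10 or more Msx1 UMIs. The share of positive cells was lower in the mutant library, while the UMIs per positive cell were not.

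Msx2 was found in 15.9% of control (14.7 to 17.1) and 10.5% of mutant (9.42 to 11.7) mesenchyme cells, with 1.78 and 1.93 UMIs per positive cell, and in 23.8% and 17.4% without thinning. In mandibular-like cells the share was 18.1% (15.4 to 21.0) and 10.7% (7.83 to 14.1), while Msx1 was found in 37.2% and 35.5% of these cells. For Msx1 in cluster 4 the share of positive cells was 24.5% and 24.3%, and the mean per positive cell was 4.51 in the control and 3.11 in the mutant library. As a background, the cells of neural cluster 5 were positive for Msx2 in 0.602% of control cells, at a median depth before thinning of 10593 UMIs against 14514 in control mesenchyme.

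**Figure D3:**
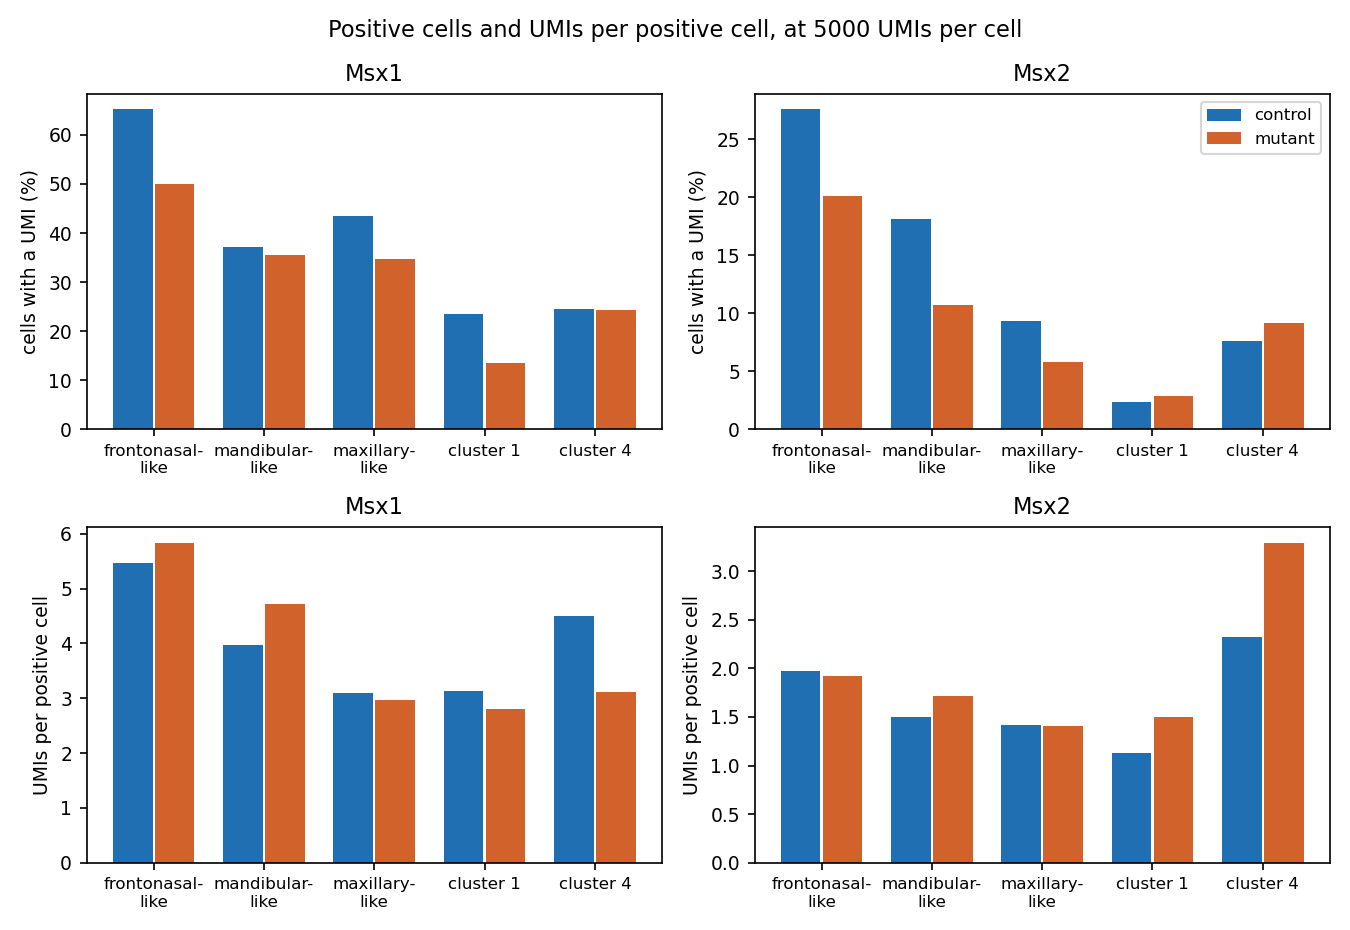
Share of cells with a UMI (top, percent) and mean UMIs per positive cell (bottom) for Msx1 (left) and Msx2 (right) in 5 mesenchyme clusters, thinned to 5000 UMIs per cell, in the control (blue) and mutant (orange) library. In frontonasal-like cells the share with Msx1 was 65.2% and 50%, while the UMIs per positive cell were 5.47 and 5.83.

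Over the mesenchyme as a whole, most cells with Msx2 also held Msx1. In control mesenchyme 14% of cells held both transcripts, 30.2% Msx1 alone and 1.85% Msx2 alone, and in mutant mesenchyme 9.17%, 23.7% and 1.37%. An Msx2 UMI was found in 31.7% (29.5 to 34.0) of control cells with Msx1 and in 3.32% (2.59 to 4.19) of those without. In the mutant library these shares were 27.9% (25 to 31.0) and 2.03% (1.44 to 2.78). Frontonasal-like cells had 40.4% and 38.7% Msx2-positive cells among those with Msx1. Mandibular-like cells had 37.8% (32.1 to 43.7) in the control and 27.3% (20.2 to 35.3) in the mutant library. Thinned to 2500 UMIs instead, the mandibular-like shares lay closer, at 26.2% (20.6 to 32.4) and 23.9% (16.4 to 32.8). Mesenchyme cluster 1 was an exception, though with few cells. Its control cells held Msx2 alone in 1.33% and both genes in 1.03% (7 cells), its mutant cells in 2.60% and 0.289% (2 cells). Msx2 shares there were 4.40% (1.79 to 8.86) with Msx1 against 1.74% (0.797 to 3.27) without it in the control library. The mutant shares were 2.13% (0.259 to 7.48) against 3.01% (1.79 to 4.72). In the Msx3-led brain cluster Msx2 was found in 29.2% and 37.9% of the cells with Msx1 and in 21.0% and 19.0% of those without. In the glia most Msx2-positive cells lacked Msx1, as 2.32% of control and 8.96% of mutant glia-like cells held Msx2 without Msx1, and 0.386% and 0.995% held both. Msx2 without Msx1 was as frequent in the Msx3-led cluster, at 10.2% of control and 9.04% of mutant cells.

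**Figure D4:**
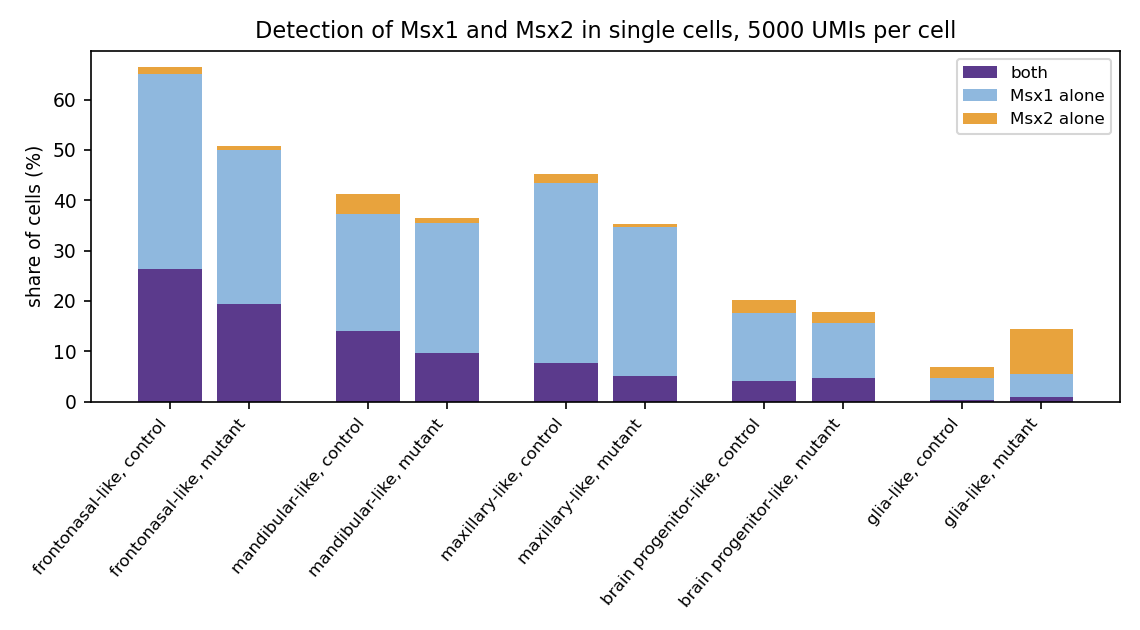
Share of cells (percent) with UMIs of both genes (purple), Msx1 alone (blue) or Msx2 alone (orange) in 5 populations of each library, thinned to 5000 UMIs per cell. Msx2 without Msx1 made up 8.96% of mutant glia-like cells and at most 4.04% of the cells in the other bars. The Msx3-led cluster, which had 10.2% and 9.04%, is not plotted.

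Position genes were used to find which mesenchyme cells carried the members. Alx1 marks frontonasal mesenchyme, Pax3 its upper lateral part among other places, Lhx8 oral maxillary and mandibular mesenchyme, and Barx1 proximal arch mesenchyme. In frontonasal-like cells thinned to 5000 UMIs, cells with an Alx1 UMI held 4.16 Msx1 UMIs per cell in the control and 4.53 in the mutant library, so that the ratio was 0.12 (0.04 to 0.20) on the log2 scale. Cells without an Alx1 UMI held 2.04 and 1.08, a ratio of -0.92 (-1.10 to -0.74). Pax3 divided them likewise, with 4.51 and 5.28 Msx1 UMIs in positive cells and 3.02 and 1.95 in negative cells, ratios of 0.23 (0.12 to 0.33) and -0.63 (-0.74 to -0.53). Alx4, another frontonasal gene, did not divide them in this way, since Msx1 had a ratio of -0.38 (-0.50 to -0.25) in Alx4-positive cells and of -0.21 (-0.30 to -0.12) in Alx4-negative cells. The Alx1-positive share itself was 72.1% of control and 53.2% of mutant frontonasal-like cells, and Alx1 had a mesenchyme ratio of -0.69. This gate is therefore set by a gene that also differed between the libraries. The same holds for Pax3, with shares of 36.9% and 29.1% and a mesenchyme ratio of -0.43 (-0.51 to -0.34). It holds for Alx4 too, with shares of 32.8% and 27.3% and a ratio of -0.43 (-0.52 to -0.35).

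For Msx2, Alx1-positive cells held 0.657 and 0.629 Msx2 UMIs per cell, a ratio of -0.06 (-0.28 to 0.15), and Alx1-negative cells 0.249 and 0.112, a ratio of -1.15 (-1.72 to -0.59). Lhx8-positive frontonasal-like cells held 8.06 control and 7.44 mutant Msx1 UMIs per cell and 1.49 and 1.24 Msx2 UMIs. Barx1-positive cells of the same cluster held only 0.559 and 0.670 Msx1 UMIs. Over mesenchyme clusters 0 to 4 Barx1-positive cells likewise held 0.686 and 0.535 Msx1 UMIs per cell, against 2.63 and 1.86 in Barx1-negative cells.

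**Figure D5:**
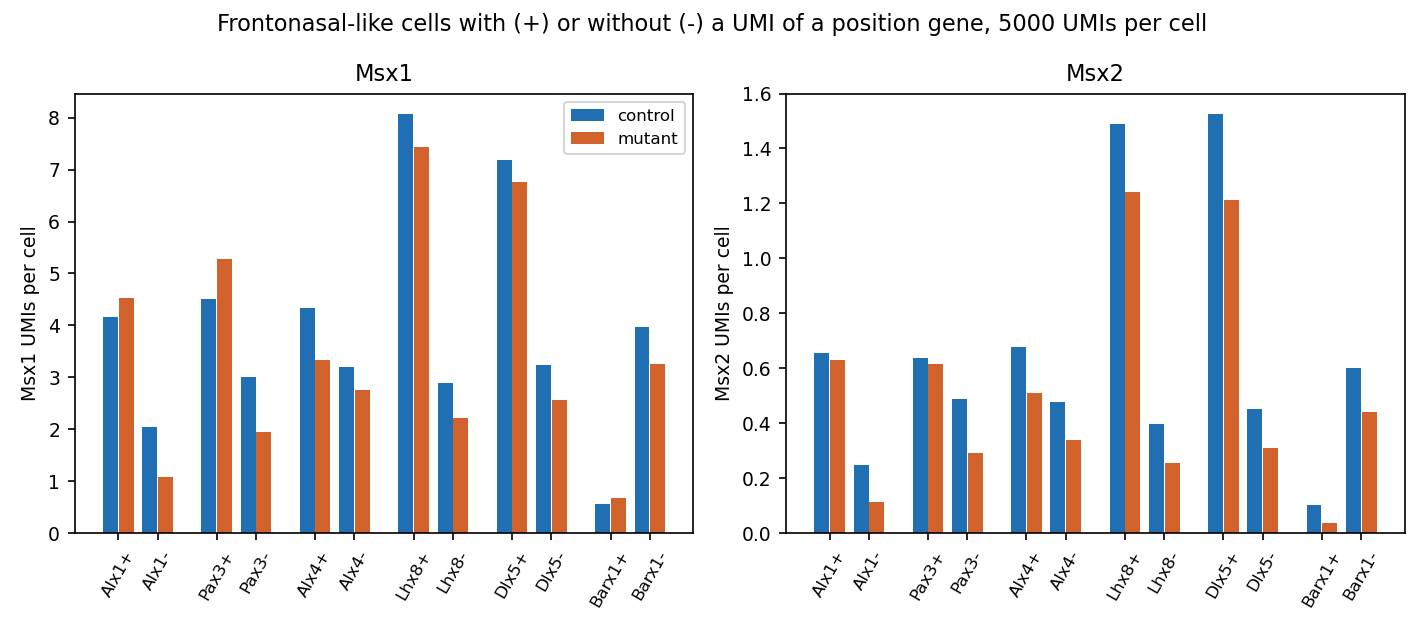
Msx1 (left) and Msx2 (right) UMIs per frontonasal-like cell, thinned to 5000 UMIs, in cells with (+) or without (-) a UMI of 6 position genes, in the control (blue) and mutant (orange) library. The Msx1 bars of the libraries lie close in Alx1-positive cells, at 4.16 and 4.53, and apart in Alx1-negative cells, at 2.04 and 1.08.

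Hand1 marks the distal midline of the mandible. Hand1-positive mandibular-like cells, 103 control and 30 mutant cells, held 3.59 and 3.33 Msx1 UMIs per cell, a ratio of -0.11 (-0.44 to 0.21). Msx2 stood at 0.573 and 0.233 UMIs per cell in them, from 59 control and 7 mutant UMIs, a ratio of -1.30 (-2.67 to -0.16). Hand1-positive cells made up 13.4% of control and 7.44% of mutant mandibular-like cells, and Hand1 had a mesenchyme ratio of -1.56. This gate too is therefore set by a gene that differed between the libraries. Dlx5-positive mandibular-like cells held 2.35 and 3 Msx1 UMIs per cell, a ratio of 0.35 (0.16 to 0.55). The Msx1 ratio was also above 0 in cells with Hand2 (0.21), Lhx6 (0.65), Lhx8 (0.23) or Hoxa2 (1.15), with intervals that left out 0. The Hoxa2 value (0.10 to 2.27) came from 12 control and 25 mutant Msx1 UMIs in 34 and 32 cells. Some of these gates differed in size between control and mutant mandibular-like cells. The shares were 4.69% and 9.93% for Lhx6, 17.1% and 24.3% for Lhx8 and 4.43% and 7.94% for Hoxa2. Those of Hand2 (54.6% and 53.8%) and Dlx5 (29.4% and 30.3%) differed little. The Msx1 ratio was below 0 in cells with Alx4, at -0.43 (-0.68 to -0.18), or Barx1, at -0.55 (-0.97 to -0.13). Alx1-positive cells had -0.16 (-0.37 to 0.05) and Alx1-negative cells 0.24 (0.05 to 0.42), unlike the split in frontonasal-like cells.

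Because the mutant mesenchyme also held other shares of the clusters, the difference was divided into a part within clusters and a part from their sizes. Of the difference of 104.4 CPM of Msx1, 67.7% was left with cluster shares held at the mean of both libraries, and 43.3% came from within the frontonasal-like cluster alone. Other clusterings gave 55.3% to 82.4% for the within-cluster part. For Msx2 it was 72.3% of 18.6 CPM, with 56.7% from the frontonasal-like cluster. The within-cluster difference of mandibular-like cells had the opposite sign for Msx1 (-4.45% of the total), as had those of clusters 1 and 4 for Msx2 (-3.43% and -8.61%).

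The BMP pathway, the upstream input best known for Msx genes, was then read in the same cells. Of 36 listed genes, 30 had at least 100 UMIs in the mesenchyme, and their median log2 ratio was -0.05. The 1 gene past 1.5-fold, against 0.899% of all mesenchyme genes lower and 2.51% higher, was the ligand Gdf6, with 240 and 114 UMIs and a ratio of -0.67 (-1 to -0.34). Bmp4, the ligand with most UMIs, was at 51.7 and 43.1 CPM, a ratio of -0.26 (-0.35 to -0.18). Acvr2b, a type II receptor and the receptor with most UMIs, had -0.13 (-0.18 to -0.07), and the antagonist with most UMIs, the pseudoreceptor Bambi, had -0.24 (-0.32 to -0.16). Id3, the direct target with most UMIs, was at 444.4 and 432.5 CPM, a ratio of -0.04 (-0.07 to -0.01). None of the 8 listed targets passed 1.5-fold in the mesenchyme.

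In frontonasal-like cells 1 of 27 tested BMP genes was called, the antagonist Grem1 with a ratio of -0.83 (-1.37 to -0.31), against 0.865% of all genes called lower and 1.61% higher. Of 22 tested in mandibular-like cells, the type I receptor Bmpr1b had -1.45 (-2.18 to -0.77) and the antagonist Sostdc1 0.72 (0.57 to 0.87). There 1.07% of all genes were called lower and 0.547% higher. Sostdc1, with 0.61 (0.40 to 0.82), was the 1 called of 22 tested in maxillary-like cells, against 0.571% lower and 0.688% higher. In cluster 4, 2 of 15 tested were called, against 0.833% of all genes lower and 2.58% higher. They were Acvr2b at -0.61 (-0.85 to -0.37) and the target Tbx2 at -0.82 (-1.26 to -0.39). In mesenchyme cluster 1, 0 of 21 tested were called, against 0.839% of all genes lower and 1.98% higher. Of the 5 targets tested there, Id1 had 0.58 (0.45 to 0.71), Id2 0.23 (0.14 to 0.32) and Id3 0.24 (0.17 to 0.32). Hey1 had 0.33 (-0.05 to 0.72) and Tbx2 -0.53 (-0.83 to -0.23). In the glia-like class, where Msx2 was higher, the BMP targets Id2 and Id3 had 0.97 (0.85 to 1.08) and 0.52 (0.44 to 0.61), and Smad7, an inhibitory Smad, 0.87 (0.51 to 1.24). Id2 and Smad7 were the 2 called among 12 tested BMP genes, where 4.52% of all genes were called higher and 5.15% lower. The other tested genes were mixed. Twsg1 had 0.39 (0.003 to 0.78) and Id1 0.19 (-0.002 to 0.38). Smad4 had 0.18 (-0.05 to 0.41), Bmpr1a 0.15 (-0.09 to 0.39) and Smad5 0.13 (-0.17 to 0.44). Smad1, which carries the BMP signal, had -0.43 (-0.70 to -0.17) and Hey1 -0.37 (-0.80 to 0.06). The receptors Acvr2b and Bmpr2 had -0.31 (-0.50 to -0.12) and -0.14 (-0.45 to 0.16). The median of the 12 was 0.17, against 0.02 over all genes.

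Among 30 transcription factors of the face, all with enough UMIs in the mesenchyme, 4 were past 1.5-fold lower and 0 higher, with a median ratio of -0.14, where all genes had 0.899% lower, 2.51% higher and a median of 0.02. Among them were Hand1 at -1.56 (-1.82 to -1.30), Pax7 at -0.89 (-1.04 to -0.73) and Alx1 at -0.69 (-0.73 to -0.64). Prrx1 and Twist1, general mesenchyme factors at levels like that of Msx1, had -0.06 and -0.04. In frontonasal-like cells 3 of 22 tested factors were called lower, Pax7 and Pax9 among them, and 3 higher (Osr1, Osr2 and Runx2). Over all genes of these cells the shares were 0.865% and 1.61%. Msx2 had its lowest mesenchymal ratio in maxillary-like cells. There 2 of 24 tested factors were called lower and 0 higher, against 0.571% and 0.688% of all genes. They were Pitx1 at -0.82 (-0.92 to -0.72) and Dlx6 at -0.59 (-0.85 to -0.34). In mesenchyme cluster 1, 6 of 19 tested factors were called lower and 2 higher, against 0.839% and 1.98% of all genes. The lowest of them was Pitx1, at -4.01 (-4.99 to -3.18).

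Finally, genes with the most similar pattern of levels were found by correlating log2(CPM+1) over 30 points, 15 clusters in each of the 2 libraries. The points share libraries and depth, and the values are a description. Msx1 was most like Ethe1 (r = 0.91), Emilin2 (0.91), Prrx2 (0.90), Pde3a (0.89) and Cox4i2 (0.88). Msx2 was most like Id1 (0.90), a BMP target, then Cox4i2 (0.88), Eya4 (0.85), Msx1 (0.84) and Arhgef5 (0.83). Msx1 thus stood in place 4 for Msx2, while Msx2 stood in place 30 for Msx1.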

How the data were processed

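Per the labels and headers, the authors made the deposited counts, whole UMI counts for each gene in each barcode, not normalized, from 10x 3′ libraries with Cell Ranger 6.0.0 on mm10. The strand setting was not given in the sources used here. Cells with over 10% mitochondrial UMIs, under 200 or over 7500 genes were removed as in the study. Seurat 5.3.0 in R 4.3.3 integrated the libraries on 2000 variable genes and clustered them (classes at resolution 0.05, mesenchyme and neural cells at 0.2). The members and further genes of interest (24 in all), as well as Y-linked genes, Xist and Tsix were kept out of the clustering. Names needed at least 3 markers above the other cells and 2 among the 10 leading genes, haemoglobin genes left out, a rule settled after the clusters were seen. The members and lists were chosen with earlier results of these data known.

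Doublets called by Scrublet in scanpy 1.11.5 (1.65% of control, 3.06% of mutant cells) were kept. Sums of 82313680 control and 77251738 mutant UMIs set the precision. CPM have exact Poisson, shares Clopper-Pearson and log2 ratios exact conditional binomial 95% intervals (scipy 1.17.1). Cells are not replicates, and p-values were therefore not computed. The design names values for Msx genes, for list members past 1.5-fold with at least 100 UMIs in 1 or both libraries, for the ligand, receptor, antagonist and target with most UMIs, and for the 5 most similar genes. Other genes and values were chosen after they were seen. The ratios and calls were tested on simulated data with known changes. Alternatives changed scaling, depth, doublets, filters and clustering. Values of some listed genes are not reported here.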

Additional observations from a re-analysis of the deposited data

Results flagged for a closer look

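The ratios of Msx1 had opposite signs in different populations, each with an interval that left out 0. Msx1 was higher in the mutant library in mandibular-like mesenchyme, with a log2 ratio of 0.11, and in the Msx3-led neural cluster 6, with 0.24. It was lower in frontonasal-like (-0.33) and maxillary-like (-0.29) mesenchyme, in mesenchyme cluster 1 (-0.60), in mesenchyme cluster 4 (-0.54) and in the glia-like neural cluster (-1.43). In cells thinned to a common depth the intervals of the glia-like cluster (-2.23 to 1.05) and of neural cluster 6 (-0.06 to 0.55) included 0, and the share of Msx1-positive glia was at background.

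The ratios of Msx2 did so as well. Msx2 was higher in the mutant library in the glia-like neural cluster (2.10), in mesenchyme cluster 1 (0.93) and in mesenchyme cluster 4 (0.72). It was lower in maxillary-like (-0.78), frontonasal-like (-0.55) and mandibular-like (-0.37) mesenchyme. The value of cluster 1 was 0.71 (-0.18 to 1.64) in thinned cells, an interval that includes 0. In the glia the control share of Msx2-positive cells was near background. With 1 library per genotype, the difference between populations was not tested.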

How the results depend on the processing

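No paired analysis was possible because each group had 1 library. Of 164 recomputed ratios, 140 stayed inside the counting interval of the reported value, 23 moved outside it, and 1 whose own interval left out 0 changed sign. Signs also changed in some alternatives for ratios whose interval held 0, namely Msx1 in the brain progenitor-like class (0.01, lowest -0.15) and the glia-like class (-0.23, highest 0.49), and Msx2 in the neuron-like class (-0.28, highest 0.13) and neural cluster 6. For Msx1 in the mesenchyme (-0.41), TMM scaling gave -0.44, equal weight per cell -0.45 and a mitochondrial limit of 5% -0.37. For Msx1 in frontonasal-like cells (-0.33), equal weight per cell gave -0.28, the higher resolution -0.24, clustering without integration -0.72 and clustering with all genes -0.54. For Msx1 in mandibular-like cells (0.11), the mitochondrial limit gave -0.0074 and clustering without integration 0.0115. For Msx2 in frontonasal-like cells (-0.55), clustering without integration gave -0.29 and clustering with all genes -0.23. The cause of these shifts was not tested. With at least 30 UMIs, 1 BMP gene in place of 0 was past 1.5-fold higher in the mesenchyme. Thinning to 2500 UMIs lowered the share of Msx2-positive among Msx1-positive mesenchyme cells from 31.7% to 23.7% in the control and from 27.9% to 23.2% in the mutant library. Mesenchyme clusters 1 and 4 and neural cluster 6, known only by number, were not matched to other clusterings. The mitochondrial limit left 4201 control and 3910 mutant cells. Pools of 2 embryos leave the spread between embryos unknown, and populations with under 100 UMIs of a gene, such as Msx2 in the glia, give wide intervals.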
